A study of Mus musculus with 7 samples.

Results

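Mesp1, Mesp2, Ripply1, Ripply2, Meox1, Tcf15, Uncx, Tbx18, Foxc2 and Pax3 mark the front of the presomitic mesoderm, where the next somite is laid down, and the somites themselves. These 10 genes were chosen by name, and all 10 had a row of their own among the 25965 rows of the deposited table. They were measured by RNA-seq in 7 libraries of female FVB/N mouse embryos at E9.5, from the posterior end of the embryo, starting about 1 somite length behind the last somite that could be seen. Per the labels, 3 libraries came from Smchd1 +/+ embryos and 4 from Smchd1 MommeD1/MommeD1 embryos, which lack functional Smchd1, a chromosomal SMC-family protein. The text on the design counts 3 nulls instead. Both groups share strain, sex and stage, and the labels do not state whether a library is a single embryo or a pool.

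The vertebrate body axis is segmented as presomitic mesoderm matures from the tailbud forward. At a level called the determination front, T-box factor Tbx6 and Notch signalling switch on Mesp2, which sets the position of the next border and the rostral identity of the coming somite. Ripply proteins then repress Tbx6 activity and end Mesp2 expression, so that the stripe of Mesp2 transcript comes and goes with each cycle. Newly formed somites express Meox1 and Tcf15, their rostral part expresses Tbx18 and their caudal part Uncx.

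Values are given as whole reads recovered from the deposited log2 values and as RPM, the reads per 1000000 of each library's denominator. Libraries are lettered within their group in column order, because the column names give a genotype but not the number of the sample. Reads in listed genes numbered 19622596 to 23847381 per library. Smchd1 itself had 1922 to 2372 reads in null libraries and 5572 to 6552 in wild-type libraries. The presomitic regulator Tbx6 was present in every library, at 32.4 to 49.5 RPM, and so was Msgn1, at 5.73 to 14.97 RPM. Wild-type library B stood apart in several tailbud genes. It had 200 reads of Cyp26a1, the tailbud enzyme that degrades retinoic acid, against 2033 to 3100 in the other 6 libraries. Wnt3a had 118 reads there against 1102 to 1752, and Fgf8 394 against 1124 to 1824. Not every tailbud gene was low there. Nkx1-2 was highest in wild-type library B, with 2291 reads against 819 to 2086. Cdx2 had its lowest count there, 2306 against 2579 to 3227. After scaling to the autosomal median of each library, its log2 value there was 5.33, against 5.29 to 5.64 in the other 6 libraries. In bulk tissue, fewer cells of a type and less RNA per cell cannot be told apart.

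Promoter sequence from RefSeq (build GRCm38.p6) was matched by symbol for 6 of the 10 genes. The 250 bases before the RefSeq start site are shown for the Mesp and Ripply pairs. They were chosen because Mesp1, Mesp2 and Ripply2 varied together between libraries and Ripply1 did not. The sequences are written 5' to 3' on the strand of the gene. Capitals mark matches, on either strand, to the T-box core TCACAC, the RBPJ core TGGGAA or the E-box CANNTG.
Mesp1, chr7:79793591-79793840, minus strand: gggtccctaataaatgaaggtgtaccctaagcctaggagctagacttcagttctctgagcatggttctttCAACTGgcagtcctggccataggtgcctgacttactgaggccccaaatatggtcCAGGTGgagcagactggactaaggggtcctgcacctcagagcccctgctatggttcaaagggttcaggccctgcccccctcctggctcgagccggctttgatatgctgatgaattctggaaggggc
Mesp2, chr7:79810477-79810726, plus strand: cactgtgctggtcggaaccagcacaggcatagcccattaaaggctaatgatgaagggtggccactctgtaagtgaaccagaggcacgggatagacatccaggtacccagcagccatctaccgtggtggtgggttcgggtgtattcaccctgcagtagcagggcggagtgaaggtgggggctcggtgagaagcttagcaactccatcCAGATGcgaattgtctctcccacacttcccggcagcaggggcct
Ripply1, chrX:139782354-139782603, minus strand: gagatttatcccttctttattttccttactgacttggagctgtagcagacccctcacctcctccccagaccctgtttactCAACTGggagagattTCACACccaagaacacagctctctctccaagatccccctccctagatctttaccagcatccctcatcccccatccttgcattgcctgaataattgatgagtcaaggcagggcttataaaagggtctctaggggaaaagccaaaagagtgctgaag
Ripply2, chr9:87015287-87015536, plus strand: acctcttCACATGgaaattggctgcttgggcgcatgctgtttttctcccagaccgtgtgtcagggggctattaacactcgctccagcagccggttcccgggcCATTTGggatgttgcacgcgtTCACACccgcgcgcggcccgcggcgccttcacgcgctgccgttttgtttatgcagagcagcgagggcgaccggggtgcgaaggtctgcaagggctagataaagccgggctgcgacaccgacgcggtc
TCACAC was found once in the Ripply1 window, starting at position -155 from the start site, and once in the Ripply2 window, at position -127. Neither Mesp window held it, and none of the 4 held TGGGAA. Of 32851 promoter windows of the same length, 12.3% held TCACAC and 21.6% held TGGGAA. E-boxes lay at -180 and -126 in Mesp1, at -44 in Mesp2, at -170 in Ripply1 and at -243 and -148 in Ripply2, and 66.2% of all windows held at least 1. The marked matches did not overlap each other. The Mesp1 window overlaps the Mesp1 row of the deposited table, 79792241 to 79793788, and both of its E-boxes lie inside that row. The windows of Mesp2, Ripply1 and Ripply2 adjoin their rows without overlap, so the Mesp1 window is not like them. A match is a description of the letters and not evidence of a bound site.

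Mesp2, the bHLH factor that places the segment border, was close to undetected in some libraries of both genotypes and well above that in others. The gene lies on chromosome 7 from 79810727 to 79813431 (mm10, plus strand). Wild-type libraries A, B and C held 127, 124 and 8 reads of Mesp2, or 2.05, 1.89 and 0.117 RPM. Null libraries A, B, C and D held 62, 3, 4 and 184 reads, or 0.923, 0.0446, 0.0676 and 2.87 RPM. The groups overlapped over their whole range, with null library D the highest and null library B the lowest. After scaling to the autosomal median, the ratio of these 2 null libraries was 60.5 (95% exact interval 20.4 to 296, counting error only). Only 2 of the 13997 genes tested had a larger residual SD than Mesp2 on the log2 scale, where it was 2.65 against a median of 0.12 over all tested genes. Tested genes had a deposited log2 value above 0 in at least 3 libraries, and Mesp2 passed through only 3, those where it was highest. Its low libraries held 3 to 8 reads, so this rank is no fair comparison with genes counted well in every library.

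Its neighbour Mesp1, a bHLH paralogue known from early mesoderm, lies 16.9 kb away on the opposite strand, from 79792241 to 79793788. Mesp1 had 59, 59 and 4 reads in wild-type libraries A, B and C and 21, 3, 2 and 71 in null libraries A to D. The same 4 libraries were high for both Mesp genes. Mesp1 made up 25.3% to 32.2% of the reads of the pair in the 4 libraries with more than 80 Mesp reads. Their exact (Clopper-Pearson) 95% intervals overlapped, running from 16.4% to 36.04% in null library A and from 25.5% to 39.5% in wild-type library B. In the 3 libraries with 6 to 12 Mesp reads the share was 33.3% to 50%, with intervals from 11.8% to 88.2% in null B, 4.33% to 77.7% in null C and 9.92% to 65.1% in wild-type C. Transcripts of Mesp1 and Mesp2 shared no stretch of 50 bases in GENCODE M21, and no transcripts of different genes among the 10 did. No source used here gives the read length.

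Ripply2, which represses Tbx6 activity and helps end the Mesp2 stripe, followed the Mesp genes in which libraries were high but not in how high. It lies on chromosome 9 from 87015537 to 87019916. Wild-type libraries A, B and C held 56, 113 and 17 reads of Ripply2, or 0.902, 1.73 and 0.249 RPM. Null libraries A to D held 311, 9, 6 and 59 reads, or 4.63, 0.134, 0.101 and 0.921 RPM. Null library A was thus the highest for Ripply2, while its Mesp2 level was the lowest of the 4 libraries with Mesp2 above 0.9 RPM. Null library D held 184 reads of Mesp2 against 59 of Ripply2, and null library A the reverse order, 62 against 311.

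Ripply1, the X-linked paralogue, did not follow Ripply2. It lies on the X chromosome from 139779549 to 139782353. Wild-type libraries A, B and C held 98, 30 and 54 reads of Ripply1, and null libraries A to D held 110, 24, 105 and 19. The balance of the 2 Ripply genes differed between libraries. Ripply2 made up 5.41% of the reads of the pair in null library C (exact 95% interval 2.01% to 11.4%) and 79.0% in wild-type library B (71.4% to 85.4%). In null library D, with high Mesp2, Ripply1 was at its lowest, 0.297 RPM. Ripply1 was 1.77 RPM in null library C, with 4 reads of Mesp2, and 1.64 RPM in null library A, with 62 reads of Mesp2 and the highest Ripply2. After scaling, null A was the highest for Ripply1 as well.

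**Figure D1:**
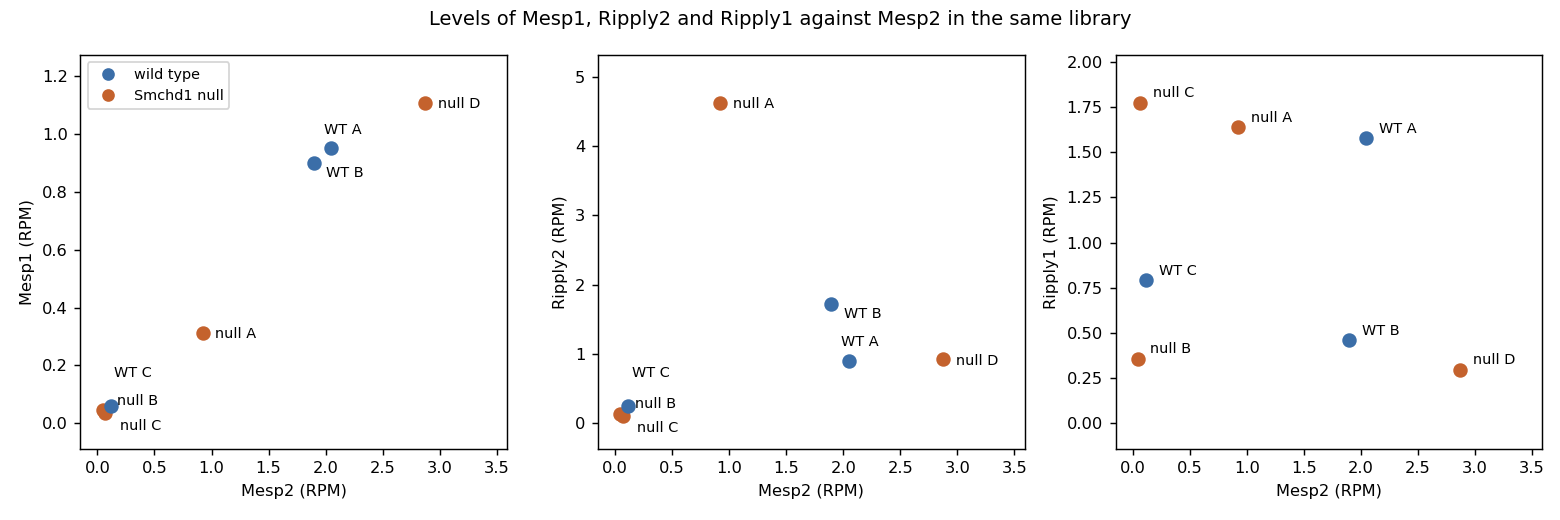
Levels (RPM) of Mesp1, Ripply2 and Ripply1 on the vertical axes against Mesp2 (RPM) on the horizontal axis, 1 point per library, blue for wild type and orange for null. Mesp1 lies along a line with Mesp2, null library A stands above the rest for Ripply2 at 4.63 RPM, and Ripply1 is high in null library C where Mesp2 is 0.0676 RPM and low in null library D where Mesp2 is 2.87 RPM.

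Meox1, a homeobox gene of early somites, had the highest median level of the 10 per kilobase of exon, though in null B, null C and wild-type C it was below Tcf15 or Foxc2. It spans chromosome 11 from 101877510 to 101894374. Wild-type libraries A, B and C held 1548, 3272 and 396 reads, or 24.9, 49.99 and 5.80 RPM. Null libraries A to D held 1352, 540, 316 and 2076 reads, or 20.1, 8.03, 5.34 and 32.4 RPM. The 4 libraries high for Mesp2 were again the highest, and the ratio of wild-type library B to null library C was 11.8 (10.5 to 13.3). At these depths the counting error is small beside the difference between libraries of 1 group.

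Tcf15, the bHLH factor paraxis that makes somites epithelial, showed the same 4 libraries on top with a narrower range. On chromosome 2 from 152143561 to 152149097, it had 329, 647 and 171 reads in wild-type libraries A, B and C and 302, 254, 155 and 431 in null libraries A to D. Its highest library, wild-type B, exceeded its lowest, null C, by 4.75-fold (3.98 to 5.70). Foxc2, a forkhead gene of paraxial mesoderm on chromosome 8 from 121116171 to 121118892, had 960, 1529 and 590 reads in wild-type and 833, 414, 435 and 1101 in null libraries. Here wild-type library B exceeded null library B by 4.50-fold (4.04 to 5.03). The table labels the Foxc2 row with a transcript of Gm20388, a read-through gene model that spans Foxc2 and shares no exonic base with it.

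Pax3, a paired-box gene of the anterior presomitic mesoderm, dermomyotome and dorsal neural tube, was the steadiest. On chromosome 1 from 78101267 to 78197134, it had 884, 1191 and 747 reads in wild-type libraries A, B and C and 1042, 1299, 803 and 1706 in null libraries A to D. The highest exceeded the lowest by 1.96-fold (1.80 to 2.13). Unlike the genes above, Pax3 was second highest in RPM in null library B, where Mesp2 had 3 reads.

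The markers of somite polarity were at the edge of detection. Uncx, a homeobox gene of the caudal somite on chromosome 5 from 139543494 to 139548179, had 3, 10 and 0 reads in wild-type libraries A, B and C and 19, 1, 5 and 7 in null libraries A to D. A count of 0 allows up to 0.0440 RPM in wild-type library C, so null library A was at least 5.31-fold higher once both were scaled. Tbx18, a T-box gene of the rostral somite on chromosome 9 from 87702800 to 87731260, had 26, 3 and 6 reads in wild-type and 25, 9, 28 and 9 reads in null libraries. Both genes stayed below 0.5 RPM in every library. The ratio of Tbx18 between null library C and wild-type library B was 8.20, with an interval of 2.53 to 42.1. A gene model on the opposite strand, D030062O11Rik, shares 20.6% of the exonic bases of Tbx18, and no source used here gives the strand setting of the counts.

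**Figure D2:**
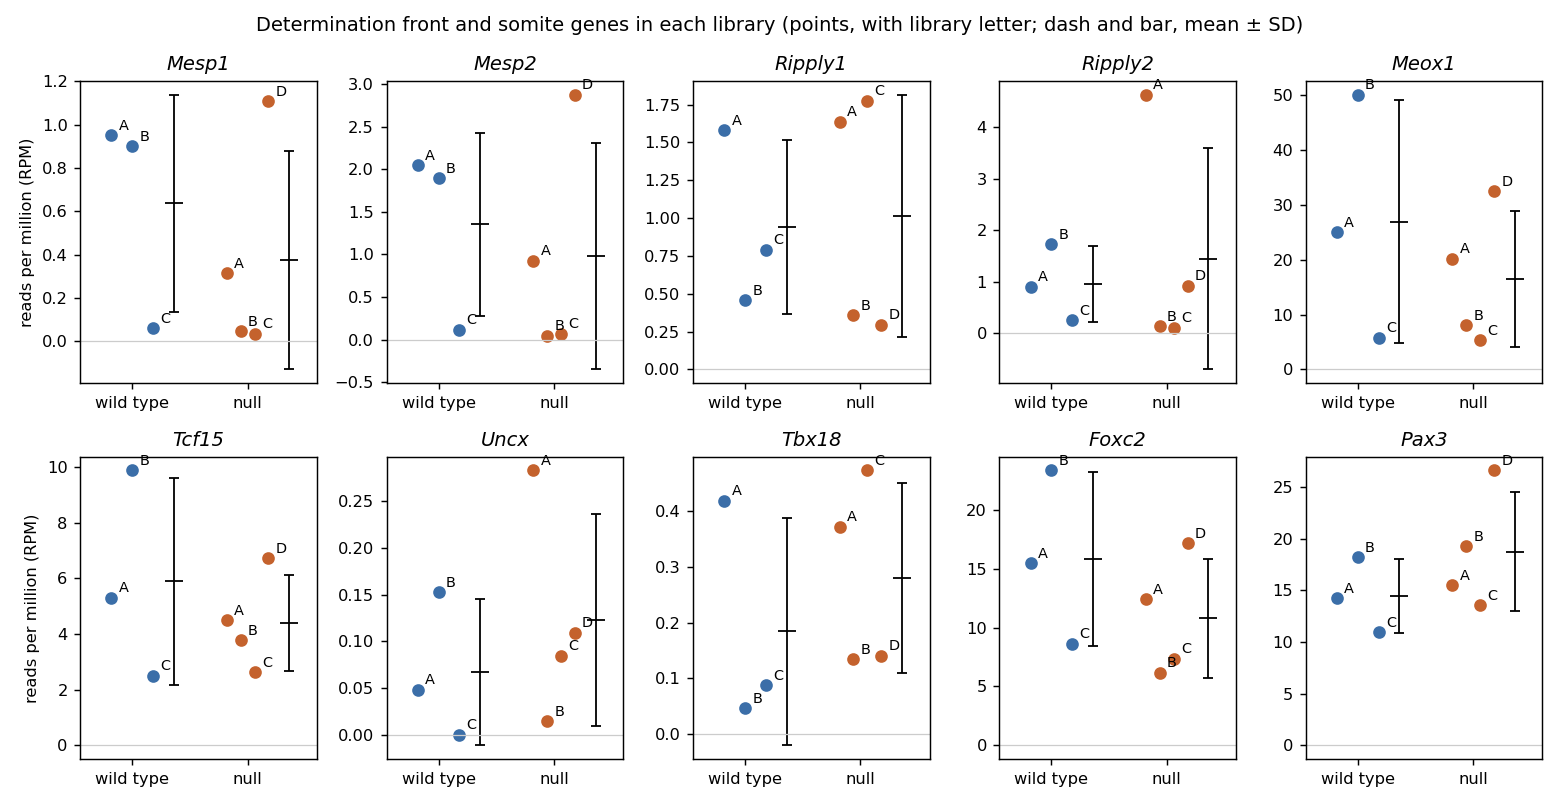
Levels in RPM (vertical axis, linear, a separate scale for each gene) of the 10 genes in the 3 wild-type (blue) and 4 null (orange) libraries, each point marked with its library letter; dashes and bars are the mean and SD. The groups overlap for every gene, and Mesp1, Mesp2, Ripply2, Meox1, Tcf15 and Foxc2 are lower in wild-type library C and null libraries B and C than in the other 4.

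Levels of different genes were compared per kilobase of exon, with exon lengths from GENCODE M21, since no source used here gives the exon models counted. The median over 7 libraries was 9.03 RPM per kilobase for Meox1, 4.59 for Tcf15, 4.55 for Foxc2 and 2.51 for Pax3. It was 1.23 for Ripply2, 0.976 for Ripply1, 0.475 for Mesp2 and 0.245 for Mesp1. Tbx18 and Uncx were far lower, at 0.0298 and 0.0269. Neighbours in this order overlapped in their range over libraries in every case. Genes of formed somites and paraxial mesoderm (Meox1, Tcf15, Foxc2, Pax3) thus had the highest medians, while Tbx18 and Uncx, which mark the 2 poles of the somite, had the lowest.

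Across these libraries 2 patterns covered 8 of the 10 genes, described after the values were seen. In Mesp1, Mesp2, Ripply2, Meox1, Tcf15 and Foxc2, null libraries A and D and wild-type libraries A and B held the 4 highest scaled values. Of these 6, Mesp2, Meox1, Tcf15 and Foxc2 passed the filter on low values (a deposited log2 value above 0 in at least 3 libraries), and of all 13997 tested genes 4.10% showed the same set. In Ripply1 and Tbx18 the 3 highest values lay in null libraries A and C and wild-type library A. That set was shown by 2.60% of tested genes, which is no comparison for either gene, since Ripply1 passed the filter only through these 3 libraries and Tbx18 did not pass it. Mesp2 likewise passed only through 3 libraries of the first set, while Meox1, Tcf15 and Foxc2 passed in all 7. Each set holds libraries of both genotypes. The column names hold a first and a last number that no source used here explains. By the first number, null B and C, both outside the first set, share 4168, and null A has 4159 and wild-type A 4121, both inside. The number 4180 is shared by null D and wild-type B, inside, and wild-type C, outside. The part of this number in the pattern was not tested. By the last number, of the libraries ending in 18, both were in the set, of those ending in 21, null D was in and wild-type C out, and of those ending in 22, wild-type A was in and null B and C out.

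**Figure D3:**
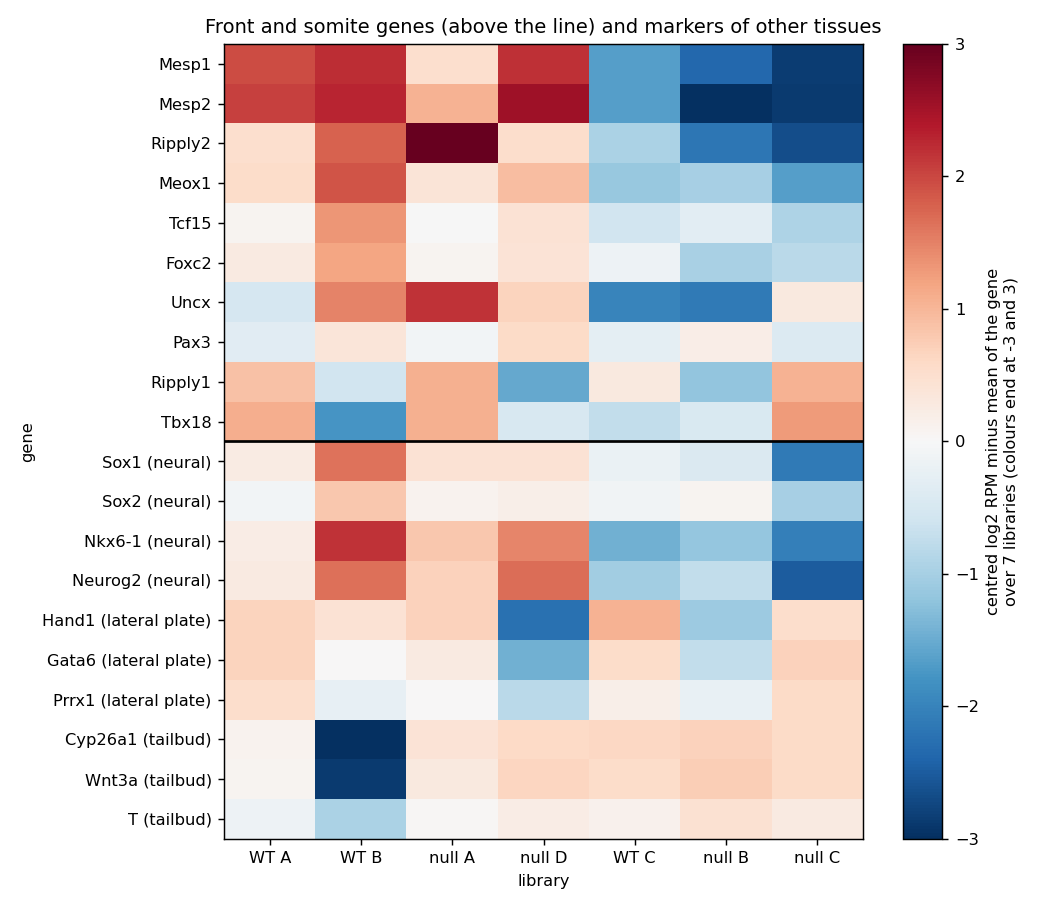
Scaled log2 RPM of each gene minus its own mean over the 7 libraries (colour, from -3 to 3) for the 10 genes above the line and 10 marker genes below it, with libraries in columns. The 4 columns on the left, 2 wild-type and 2 null, are high for Mesp1, Mesp2, Ripply2, Meox1, Tcf15 and Foxc2, and the neural genes Nkx6-1 and Neurog2 are high in the same columns; Ripply1 and Tbx18 differ from both.

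Some markers of neural tissue and of intermediate mesoderm moved with the first pattern. Among 10 neural tube and crest markers, 6 (Sox1, Pax6, Nkx6-1, Olig2, Foxd3 and Neurog2) had the same 4 libraries highest, beside 4.10% of tested genes. That share is no comparison for Olig2 and Foxd3, which did not pass the filter. Sox2, Irx3, Sox10 and Tfap2b did not show the set. The summed level of the neural list, without scaling, was 67.9 and 81.0 RPM in null libraries A and D and 69.0 and 109 RPM in wild-type libraries A and B. It was 47.1, 38.0 and 41.5 RPM in null B, null C and wild-type C. Olig2, a motor neuron progenitor factor, had no reads in null libraries B and C and 1 read in wild-type library C, against 8 to 88 in the others. Of 5 intermediate mesoderm markers, Pax8 and Lhx1 also had those 4 libraries highest, while Osr1, Pax2 and Wt1 did not. Pax2 had 692 reads in null library B and 287 in wild-type library B. None of the tailbud, lateral plate, notochord, hindgut, endothelium or blood markers had those 4 libraries highest. The part of neural tissue in the levels of the 6 genes was not tested. For Ripply1 and Tbx18, the summed level of 8 lateral plate markers was 172 RPM in wild-type A, 188 in null C and 131 in null A. It was 82.0 in wild-type B, 125 in wild-type C, 94.0 in null B and 68.6 in null D. None of the 8 markers had null A, null C and wild-type A as its 3 highest libraries, and the median scaled log2 level of the list was highest in wild-type C, at 4.32. The part of lateral plate tissue in these 2 genes was not tested either.

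Genes whose pattern over the 7 libraries was most like that of Mesp2 or Meox1 were found by the root-mean-square difference of scaled log2 values, each gene minus its own mean. Closest to Mesp2 was Gm11551, at 0.87, followed by Nkx6-1 at 1.21 and Neurog2 at 1.31, with a median of 2.37 over all tested genes. The closest of 13997 genes lie below the median by selection, so that difference is no test. Mesp2 passed the filter through only 3 libraries, and its pattern rests on 3 to 8 reads in its low libraries. Gm11551 lies inside the Meox1 gene on the opposite strand, on chromosome 11 from 101886237 to 101891206. It had 109, 289 and 14 reads in wild-type and 71, 13, 11 and 133 in null libraries. Without a stated strand setting, its reads and those of intronic Meox1 RNA cannot be told apart. Closest to Meox1 were Scube2 at 0.26, Cldn11 at 0.31 and Serpina3a at 0.36, with a median of 1.18, below which they again lie by selection. Scube2, which encodes a secreted protein that aids Hedgehog release, had 300, 786 and 108 reads in wild-type and 417, 154, 86 and 737 in null libraries. Ripply2 did not pass the filter on low values and was not compared in this way.

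Null and wild-type libraries were then compared, to ask whether these genes differ when Smchd1 is lost. No difference between the groups in these genes passed the threshold of 0.05 on the adjusted p of limma. Of the 10, only those that passed the filter on low values entered the test, namely Mesp2, Ripply1, Meox1, Tcf15, Foxc2 and Pax3. The deposited scale put the median log2 change of all tested genes at 0.16, so values were scaled to the median of autosomal genes in each library, which moved that median to -0.031. With limma and Benjamini-Hochberg adjustment over all genes tested, 0 of these 6 genes passed at 0.05, where 0.0572% of tested genes did. At an unadjusted p under 0.05 there were also 0 of the 6, against 14.0% of tested genes. With limma-voom on the recovered reads the counts were again 0 and 0 of 6, where 0.0643% and 12.2% of tested genes passed. On the deposited scale without scaling they were 0 and 0, against 0.0429% and 14.0%. None of the 10 genes had groups that did not overlap, against 12.7% of tested genes.

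Among the front genes, Mesp2 was -0.27 ± 2.21 (SD, n = 3) on the scaled log2 scale in wild-type and -1.82 ± 2.91 (SD, n = 4) in null libraries. The difference of -1.55 had an SE of 1.59 and a limma adjusted p of 0.609, with a 95% interval from -5.20 to 2.09. Ripply1 differed by -0.35 (95% interval -2.02 to 1.32, limma adjusted p = 0.81). X-linked genes had a median change of 0.15 over 496 tested, against -0.035 over 13500 autosomal genes, so Ripply1 lay below the X-linked median. Mesp1 and Ripply2, which did not pass the filter, differed by -1.48 (interval -4.87 to 1.91) and -0.77 (interval -3.98 to 2.45) in a fit over all rows. In that limma fit 0 of the 4 genes left out by the filter passed, where 0.0385% of all rows did, and 0 had an unadjusted p under 0.05, against 10.2%. Groups that did not overlap were seen in 9.98% of all rows and in none of these 4.

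Among the somite genes, Meox1 was 4.38 ± 1.52 (SD, n = 3) in wild-type and 3.61 ± 1.20 (SD, n = 4) in null libraries, a difference of -0.77 (SE 0.79, limma adjusted p = 0.609). Tcf15 differed by -0.48 (95% interval -1.52 to 0.56, adjusted p = 0.579). Foxc2 had the smallest p of the 10, 0.101 before and 0.385 after adjustment, with 3.98 ± 0.69 (SD, n = 3) in wild-type and 3.23 ± 0.68 (SD, n = 4) in null libraries by limma. Its difference of -0.75 had a 95% interval from -1.69 to 0.18. Pax3 differed by 0.17, with an interval from -0.39 to 0.72, the narrowest of the 10. In the fit over all rows, Uncx differed by 0.59 (interval -2.01 to 3.18) and Tbx18 by 0.82 (interval -1.05 to 2.69).

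Of the 6 genes that passed the filter, 5 had a change below 0, as did 57.5% of tested genes, and their median change was -0.62 beside -0.031. Of the other 4, 2 had a change below 0, as did 61.2% of all rows. Several values moved when 1 library was left out. Mesp2 was -0.65 without null B, -0.82 without null C, -0.97 without wild-type A, -2.62 without null D and -2.83 without wild-type C. Ripply1 was -0.0065 without null B, -0.012 without wild-type A and 0.11 without null D, and Pax3 was 0.00023 without null D. Meox1 ranged from -0.046 without wild-type B to -1.56 without wild-type C. Wild-type library B stood apart in several tailbud genes. Without it, Meox1 had a change of -0.046, Tcf15 0.041, Foxc2 -0.37, Mesp2 -0.86, Ripply1 -0.74 and Pax3 0.39, and again 0 of 6 passed.

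**Figure D4:**
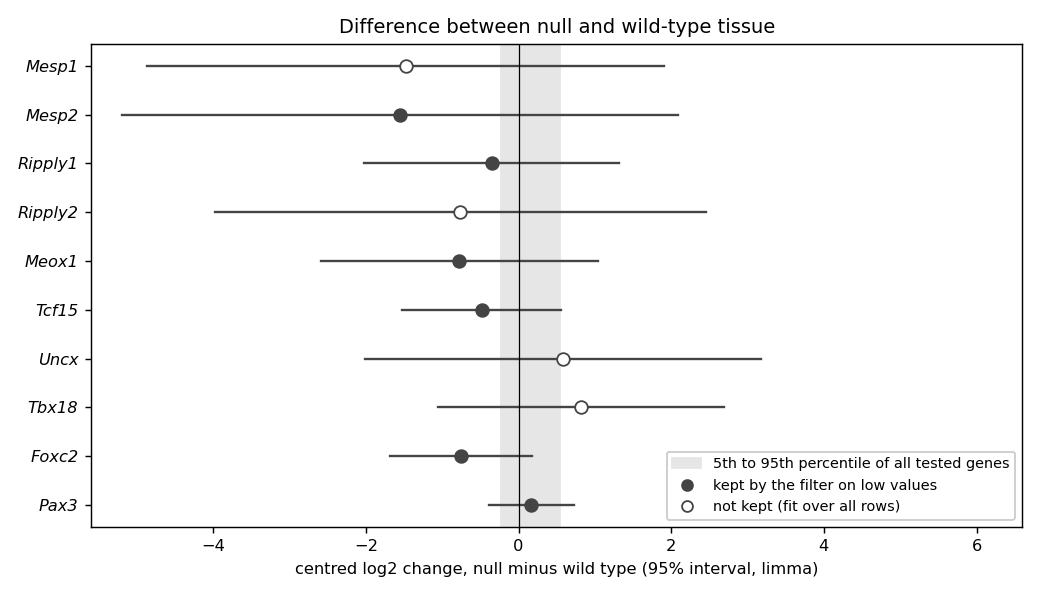
Scaled log2 change between null and wild-type libraries (horizontal axis) for the 10 genes, with the 95% interval from limma; filled points passed the filter on low values and open points come from the fit over all rows. Every interval includes 0, from Pax3 (-0.39 to 0.72) to Mesp2 (-5.20 to 2.09), and the grey band spans the 5th to 95th percentile of all tested genes, -0.23 to 0.54.

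Other genes of the same pathway were read from 3 lists. Of 14 regulators of the front, all 14 passed the filter and 0 were called by limma in either direction, where 0.0572% of tested genes were. At an unadjusted p under 0.05 there was 1, against 14.0% of tested genes, and the median change was -0.12 beside -0.031. The 2 with the smallest p were Rarb, a retinoic acid receptor, at -0.76 (SE 0.30, adjusted p = 0.352), and Msgn1, at 0.38 (SE 0.19, adjusted p = 0.370). The Notch modulator Lfng, which cycles in presomitic mesoderm, had 2039, 1223 and 1741 reads in wild-type and 1451, 916, 1820 and 2196 in null libraries. Tbx6, the activator of Mesp2 and Ripply2, ranged only from 2211 to 3199 reads over the same libraries. The 3 libraries with 3 to 8 reads of Mesp2 held 3199, 2828 and 2211 reads of Tbx6, the highest, a middle and the lowest raw count. On the scaled log2 scale Tbx6 was 5.52 in null B, 5.44 in null C and 5.29 in wild-type C. The lowest scaled value was 5.10, in null library A, which held 62 reads of Mesp2.

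Of 9 genes of somite polarity and borders, 8 passed the filter, 0 were called against the same 0.0572%, 1 had an unadjusted p under 0.05 against 14.0%, and the median change was -0.020. Cdh2, which encodes N-cadherin, differed by -0.19 (SE 0.061, limma adjusted p = 0.352) and Efnb2, the ephrin of the caudal somite, by -0.13 (adjusted p = 0.354). Cer1, a secreted inhibitor expressed at the rostral edge of the newest somites, was named after its values were seen. It had 55, 27 and 0 reads in wild-type and 56, 2, 0 and 10 in null libraries, with the same 4 libraries highest as Mesp2, and was the only 1 of the 9 with that set. Of 16 genes of somite derivatives, 8 passed, 0 were called and 1 had an unadjusted p under 0.05, against the same shares, with a median change of -0.18 beside -0.031 for all tested genes. Eya1, a transcriptional coactivator of somitic and other mesoderm, differed by -0.57 (adjusted p = 0.352) and Pax9 by 1.87 (SE 0.82, adjusted p = 0.352). Pax1 and Nkx3-2, early sclerotome genes, had at most 4 reads in any library.

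Markers of other tissues in the piece were read from 8 lists, and limma called 0 of the 54 genes that passed the filter, where 0.0572% of tested genes were called. At an unadjusted p under 0.05 there were 12 of 54, among them 4 of 6 notochord and 4 of 7 hindgut genes, against 14.0% of tested genes. Notochord markers were summed to 20.8 to 27.6 RPM in wild-type and 36.8 to 47.7 RPM in null libraries, with Foxa2 at 0.62 (limma adjusted p = 0.207) and Chrd at 0.81 (adjusted p = 0.207). Tailbud markers ranged from 159 to 316 RPM in wild-type and 310 to 389 RPM in null libraries, with T at 0.57 and 0.26 without wild-type library B. Fgf4, a tailbud growth factor, had a change of 2.15 (SE 0.82, limma adjusted p = 0.352). It had only 45, 6 and 44 reads in wild-type libraries A, B and C and 38, 238, 107 and 175 in null libraries A to D. In the neural list Irx3 differed by -0.75 (adjusted p = 0.353) and Sox1 by -0.98 (adjusted p = 0.451). In lateral plate Hand1 differed by -1.24 (adjusted p = 0.375) and Gata4 by -1.13 (adjusted p = 0.409). Wt1 and Pax2 of intermediate mesoderm differed by -0.74 and 0.59 (adjusted p = 0.305 and 0.312). Summed levels in wild-type and null libraries were 74.1 to 129 and 128 to 155 RPM for hindgut, where Cdh1 differed by 0.62 and Foxa1 by 0.61. After scaling, the median log2 level of the hindgut list was highest in wild-type C, at 4.54, against 4.21 to 4.51 in null libraries. Summed levels were 111 to 240 and 179 to 269 RPM for endothelium, where Kdr differed by 0.30 and Pecam1 by 0.28. For blood they were 49.5 to 94.97 and 65.8 to 83.8 RPM, with Hbb-y at -0.16 and Hba-x at -0.18. Intermediate mesoderm was at 19.05 to 26.4 and 21.4 to 28.6 RPM. Wild-type library B gave the lowest wild-type sum for notochord, tailbud, hindgut, endothelium and blood. Wild-type libraries A and C were at 27.6 and 23.3 RPM for notochord, 316 and 293 for tailbud and 129 and 112 for hindgut. They were at 240 and 172 RPM for endothelium and 78.6 and 94.97 for blood.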

How the data were processed

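RNA was measured in 3 wild-type and 4 null libraries. The submitters' processing notes name mm10, edgeR, TopHat2 2.0.12 and bcl2fastq. The authors deposited 1 table, in log2 RPM. Powers of 2 of the values were whole multiples of 1 read within 0.01 for 100.0% of 88211 values below 1000 reads, so reads were recovered; 0 reads appeared as 0.9 read. Denominators were 59177340 to 68242664 reads.

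The 13997 genes whose deposited log2 value exceeded 0 in 3 or more libraries were tested with limma 3.58.1 (R 4.3.3, prior trend, Benjamini-Hochberg at 0.05) after subtracting the autosomal median of each library. The fit was tested on simulated data. Scaling was used because the median gene differed between groups on the deposited scale. limma-voom on recovered reads called 9 genes, against 8 here. Libraries may be technical or biological replicates, and p-values measure their spread. Intervals and the limit for a count of 0 (3 reads) cover counting error only, since PCR copies are not independent molecules. Tables used Python 3.11.15, numpy 2.4.6 and pandas 2.3.3.

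All 10 members were named, with up to 3 passing genes per list, or the 2 of smallest p, the 3 genes most like Mesp2 and Meox1, and Cyp26a1, Fgf8 and T. Members and lists were chosen with earlier results of these data known. Foxf1 was matched as Foxf1a. Alternatives were other scalings, filters, offsets, priors, a block and leaving out each library.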

Additional observations from a re-analysis of the deposited data

Results flagged for a closer look

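Pax9, a paired-box gene of sclerotome and hindgut endoderm, had 1 library apart from its group. Its scaled log2 value was 1.52 in null library A, against 3.31 in the nearest of the other null libraries, with 193 reads against 647 to 836. The wild-type libraries held 264, 28 and 284 reads. Of 34 genes examined in the 4 null libraries this was the only 1 with such a gap. Chance alone flags about 1 gene in 20, so 1 flag among 34 is no more than chance would give.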

How the results depend on the processing

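No paired analysis was possible because the columns carry no replicate numbers of the labels. A block on their unexplained last number was run, and a block on the first was not, since only 4180 occurs in both groups. For the 10 genes, 133 of 140 alternative values kept their sign and stayed above the threshold, and the smallest adjusted p was 0.194. Under log2(RPM + 1), Uncx was -0.11 and Tbx18 -0.065, against 0.59 and 0.82; the cause was not tested. Leaving out 1 library at a time gave ranges that crossed 0 for Ripply1 (-0.76 to 0.11, above 0 without null library D), Ripply2 (-1.87 to 0.011, without null library C), Tcf15 (-0.91 to 0.041, without wild-type library B) and Uncx (-0.23 to 1.49, below 0 without null A, at -0.055, or without wild-type C). Without 1 library, Mesp1 ranged from -2.72 to -0.74, Mesp2 from -2.83 to -0.65, Meox1 from -1.56 to -0.046, Foxc2 from -1.05 to -0.37 and Pax3 from 0.00023 to 0.39. Calls over all genes numbered 4 to 10 in that way, with 4 after leaving out null B, wild-type A or wild-type C and 5 after leaving out null D. Calls among the 10 genes and the 3 pathway lists were 0 under every alternative run, that block included. The planned edgeR quasi-likelihood test was not run, and limma-voom was used on the recovered reads instead. Depth limits Uncx, Tbx18, the low libraries of Mesp1, Mesp2 and Ripply2, and null libraries B and D for Ripply1. In these a level rests on at most 28 reads.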

Other observations

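Other paraxial genes also differed between libraries of 1 genotype. Pcdh8, a protocadherin of the forming somite border, had 950, 1697 and 185 reads in wild-type libraries A, B and C and 749, 870, 258 and 833 in null libraries A to D. Wild-type library C and null library C were the lowest, while null library B, with 3 reads of Mesp2, held 870. Sim1, a bHLH-PAS gene of the lateral dermomyotome, had 174, 293 and 79 reads in wild-type and 181, 68, 54 and 101 in null libraries. Dmrt2, a dermomyotome gene, had 22, 46 and 4 and then 44, 20, 6 and 31 reads. Sim1 and Dmrt2 had the same 4 libraries highest as Mesp2, and Pcdh8 did not. That set was shown by 3 of 16 genes of somite derivatives (with Meox2), 2 of 14 front regulators (Rbpj and Foxc1) and 1 of 9 genes of polarity and borders, so most genes of these lists did not show it. Of tested genes 4.10% showed that set, which is no comparison for Dmrt2, Meox2 and Cer1, since they did not pass the filter. Pcdh8, Sim1 and Dmrt2 were picked after their values were seen.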
